A study of Mus musculus with 311 samples.

Results

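Livers of 156 of the 311 F2 animals of this cross, those with a low signal of the Y-linked gene Eif2s3y, were compared by how much Sult2a2 RNA they held. An animal was kept when its deposited log10 ratio for Eif2s3y was below -0.5, and the kept animals were ranked by Sult2a2. The 39 animals with the highest Sult2a2 values (the highest group, 25% of the set) were set against the 39 with the lowest (the lowest group), and 78 animals lay between them. The sets and groups were thus chosen by measured values, so Eif2s3y, Sult2a2 and the closely related Sult2a1 are described here without a test. The F2 animals descend from a cross of C57BL/6J with C3H/HeJ, each on an ApoE null background, in which apolipoprotein E is missing and blood cholesterol is high. Males and females alike ate a high-fat Western diet between 8 and 24 weeks of age. Total liver RNA of each animal, labelled with Cy3, was hybridised on 1 array against a Cy5-labelled pool made from equal parts of all samples. The labels give neither the sex of an animal nor any other group, so all arrays form 1 group, F2 liver, and the animals are called Eif2s3y-low (156) and Eif2s3y-high (155). Values below are log2 ratios of liver over pool, converted from the deposited log10 ratios, and a difference of 1 corresponds to a doubling.

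Sult2a enzymes are cytosolic sulfotransferases of the liver that attach sulfate to hydroxysteroids such as dehydroepiandrosterone and to bile acids, which makes these molecules more soluble and easier to export. In mice the Sult2a genes are known as female-biased liver genes. Many sex-biased liver genes follow the pattern of pituitary growth hormone release, pulsatile in males and more continuous in females, which is read in hepatocytes through the growth hormone receptor, Jak2 and Stat5b. Eif2s3y and Kdm5d are carried by the Y chromosome.

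The 2 arrays just below the Eif2s3y limit had log10 ratios of -0.945 and -0.875, and the 2 just above it had -0.219 and -0.0386. Kdm5d, read from the same Y chromosome, had a median log2 ratio of -3.38 in the Eif2s3y-low and 1.05 in the Eif2s3y-high animals. Its values ran from -4.91 to -0.849 in the Eif2s3y-low and from -0.211 to 1.60 in the Eif2s3y-high animals. A limit at the largest gap in Kdm5d kept 155 animals where Eif2s3y kept 156. Since the Kdm5d ranges of the 2 sets did not overlap, this mismatch comes from where that limit fell. A Kdm5d limit between -0.849 and -0.211 would class the animals as Eif2s3y did. Within the Eif2s3y-low animals the groups met their neighbours without a gap, since the last array of the lowest group had a Sult2a2 log10 ratio of -0.182 and the next array -0.178, and the first array of the highest group had 0.433 and the one before it 0.426.

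Sult2a2, on chromosome 7, ran from 1.44 to 2.83 in the highest group (median 1.83) and from -4.12 to -0.60 in the lowest group (median -1.77), a difference of means of 3.76 or 13.5-fold. The 78 animals between had a median of 0.60, and the Eif2s3y-high animals ran from -6.05 to -3.74 with a median of -5.10. The lowest Eif2s3y-low animals, at -4.12 and -3.88, thus lay within the range of the Eif2s3y-high animals. The other 3 probes of Sult2a2 followed the ranking probe over the 156 animals with Pearson's r of 0.959, 0.936 and 0.923, and the groups differed on them by 1.86, 1.89 and 1.74, less than on the ranking probe. Both probes of Sult2a1, a neighbour and close relative of Sult2a2, had r of 0.945 with the ranking probe and group differences of 1.92 and 2.21. Probes for such similar sequences may take up RNA from both genes, so these values do not separate the genes. The signal of Eif2s3y itself ran from -5.85 to -3.75 in the highest and from -5.84 to -3.28 in the lowest group.

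**Figure D1:**
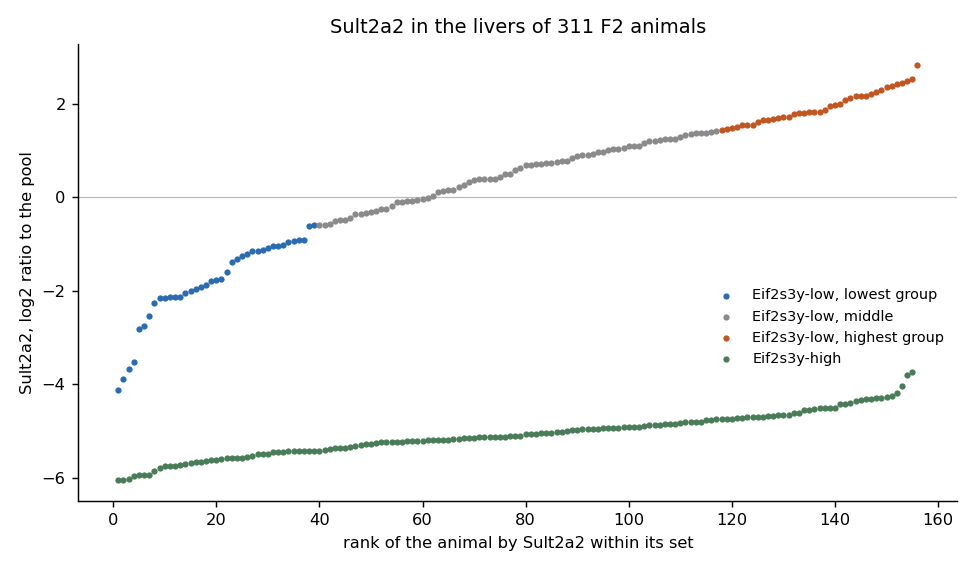
Each point is 1 animal, with the rank by Sult2a2 within its set on the x axis and the log2 ratio of Sult2a2 to the pool on the y axis; colors mark the groups of the Eif2s3y-low animals and the Eif2s3y-high animals. The Eif2s3y-low values rise from -4.12 to 2.83 with no gap at either group's edge, and the Eif2s3y-high values lie between -6.05 and -3.74.

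Across the liver, few genes separated the groups, and those that did included many of the genes known to be sex-biased in mouse liver. Of 11384 genes tested with limma, 236 (2.07%) were called at a Benjamini-Hochberg adjusted p under 0.05. In the highest Sult2a2 group 94 of them (0.826% of the genes tested) were higher and 142 (1.25%) were lower. Most of these differences were small, with a median of 0.21 for the higher and -0.21 for the lower genes, while the median over all genes tested was 0.00495. A difference of at least 1.5-fold was reached by 12 of the higher genes (0.105%) and 14 of the lower genes (0.123%). The spread of values within an array, its SD on the log10 scale, had a median of 0.110 in the highest and 0.0938 in the lowest group. With this SD as a covariate 64 genes were called higher and 84 lower, of which 12 and 12 passed 1.5-fold. Animals are single arrays without repeat hybridisations, so the tests use the spread between animals.

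Among the 12 genes that were at least 1.5-fold higher with high Sult2a2, 6 belonged to the list of known female-biased liver genes and none to the male-biased list. Cyp3a16, a drug- and steroid-metabolizing cytochrome P450 of the Cyp3a family, ran from -1.47 to 2.82 in the highest group (median 1.09) and from -2.28 to 1.19 in the lowest group (median -0.46). The ranges overlapped, but 18 of the 39 animals of the highest group lay above every animal of the lowest. The difference was 1.48 ± 0.18 (SE), or 2.79-fold, with an adjusted p of 2.88e-08. Its neighbour Cyp3a41a differed by 0.42 ± 0.11 (adjusted p = 0.0169), and probes of these near-identical family members may share RNA.

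Hao2, a peroxisomal oxidase of 2-hydroxy acids, ran from -1.02 to 1.98 in the highest group (median 1.32) and from -1.60 to 1.60 in the lowest group (median 0.28). Thus 38 of the 39 animals of the lowest group lay below the median of the highest group, and 5 animals of the highest group exceeded all of the lowest. Hao2 differed by 0.90 ± 0.14, or 1.87-fold, with an adjusted p of 5.5e-06. Slc22a26, a member of the organic anion transporter family, ran from -1.18 to 3.20 in the highest group (median 1.17) and from -1.76 to 1.86 in the lowest group (median 0.15) over 39 and 36 measured animals. It differed by 0.997 ± 0.191, or 2-fold, with an adjusted p of 0.000579. The groups overlapped widely here, and 6 animals of the highest group lay above all of the lowest.

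Sult1e1, the estrogen sulfotransferase, ran from -2.82 to 4.01 in the highest group (median 0.40) and from -3.07 to 1.42 in the lowest group (median -1.43). It was the most scattered of the 6 female-biased genes, with an SD of 1.54 in the highest and 1.17 in the lowest group, and it differed by 1.41 ± 0.30 (adjusted p = 0.00303). Vldlr, the very low density lipoprotein receptor, ran from -0.30 to 2.00 in the highest group (median 0.72) and from -0.84 to 0.84 in the lowest group (median 0.08). Its difference of 0.63 ± 0.09 had an adjusted p of 4.19e-06, and 13 animals of the highest group stood above all of the lowest. Cux2, a transcription factor that represses male-biased genes in female mouse liver, ran from -0.65 to 2.06 in the highest group (median 1.03) and from -1.14 to 1.80 in the lowest group (median 0.41). Cux2 differed by 0.61 ± 0.15 (adjusted p = 0.0154), with only 1 animal of the highest group beyond the range of the lowest.

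The remaining 6 of these genes stand in neither list. Hsd17b13, a lipid droplet protein of hepatocytes, had the largest difference of all (1.61 ± 0.34, adjusted p = 0.00223) and fell into separate clusters. Below a log2 ratio of -2, a limit chosen after its values were seen, lay 21 of the 39 animals of the lowest group (53.8%), 4 of the 39 of the highest (10.3%) and 15 of the 78 between (19.2%). The Eif2s3y-high animals had 36 of 154 (23.4%) below that limit and the Eif2s3y-low animals 40 of 156 (25.6%), so both sets held the low cluster. The groups thus differed in how many animals fell into each cluster. The other members were Synpo2l, an actin-associated protein (1.08 ± 0.27, adjusted p = 0.0142), Adgrg2, an adhesion G protein-coupled receptor (0.71 ± 0.09, adjusted p = 4.42e-08), Rbks, ribokinase (0.69 ± 0.17, adjusted p = 0.0122), Sparcl1, a matricellular protein (0.61 ± 0.15, adjusted p = 0.0116), and ZBED4, a name kept from the platform. Synpo2l, Rbks and Sparcl1 also had wide ranges in the lowest group, with SDs of 1.42, 0.93 and 0.77.

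ZBED4 and Zbed4, which encode zinc finger BED domain proteins by their names, followed Sult2a2 most closely of all genes tested. Over the 156 Eif2s3y-low animals their Spearman rho with Sult2a2 was 0.771 and 0.731, before Cyp3a16 (0.62), Hao2 (0.577) and Vldlr (0.492). The points of such a correlation share the outer groups that chose the called genes, so it is a description of likeness. ZBED4 ran from -0.57 to 1.59 in the highest group (median 0.56) and from -0.79 to 0.19 in the lowest group (median -0.30), and 31 of the 39 highest-group animals lay above all of the lowest. Zbed4 ran from -0.02 to 1.31 in the highest group (median 0.49) and from -0.18 to 0.34 in the lowest group (median -0.02). ZBED4 differed by 0.90 ± 0.08 (adjusted p = 3.04e-14) and Zbed4 by 0.50 ± 0.05 (adjusted p = 2.09e-12). The 2 probes correlated with each other (Pearson's r 0.837, Spearman rho 0.807, n = 156), and whether they read the same transcript was not tested. A1bg, a plasma glycoprotein listed beside Sult2a2 and Hao2 as marking these animals, did not pass the test. It ran from -3.74 to 3.80 in the highest group (median 0.41) and from -4.85 to 2.51 in the lowest group (median -0.63), a difference of 0.72 ± 0.39 with an adjusted p of 0.414 and a rho of 0.209 with Sult2a2. Its SD of 1.78 and 1.75 in the groups exceeded the difference.

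**Figure D2:**
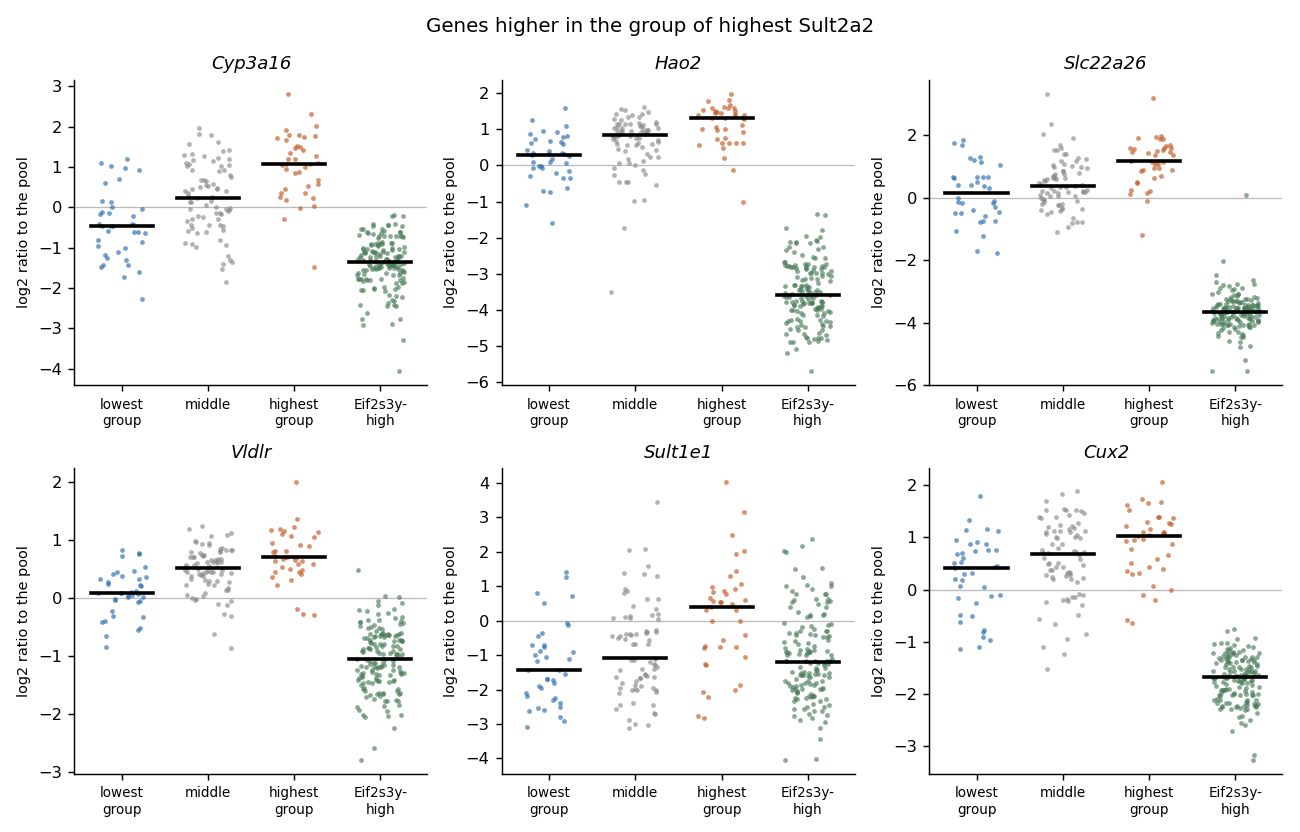
Each point is 1 animal; the y axes give the log2 ratio to the pool, the x axis the lowest, middle and highest Sult2a2 animals of the Eif2s3y-low set and the Eif2s3y-high animals, and black bars are medians. Cyp3a16 medians go from -0.46 through 0.24 to 1.09, and Sult1e1 is the only one of these genes whose Eif2s3y-high median (-1.19) is close to that of the middle animals (-1.10).

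**Figure D3:**
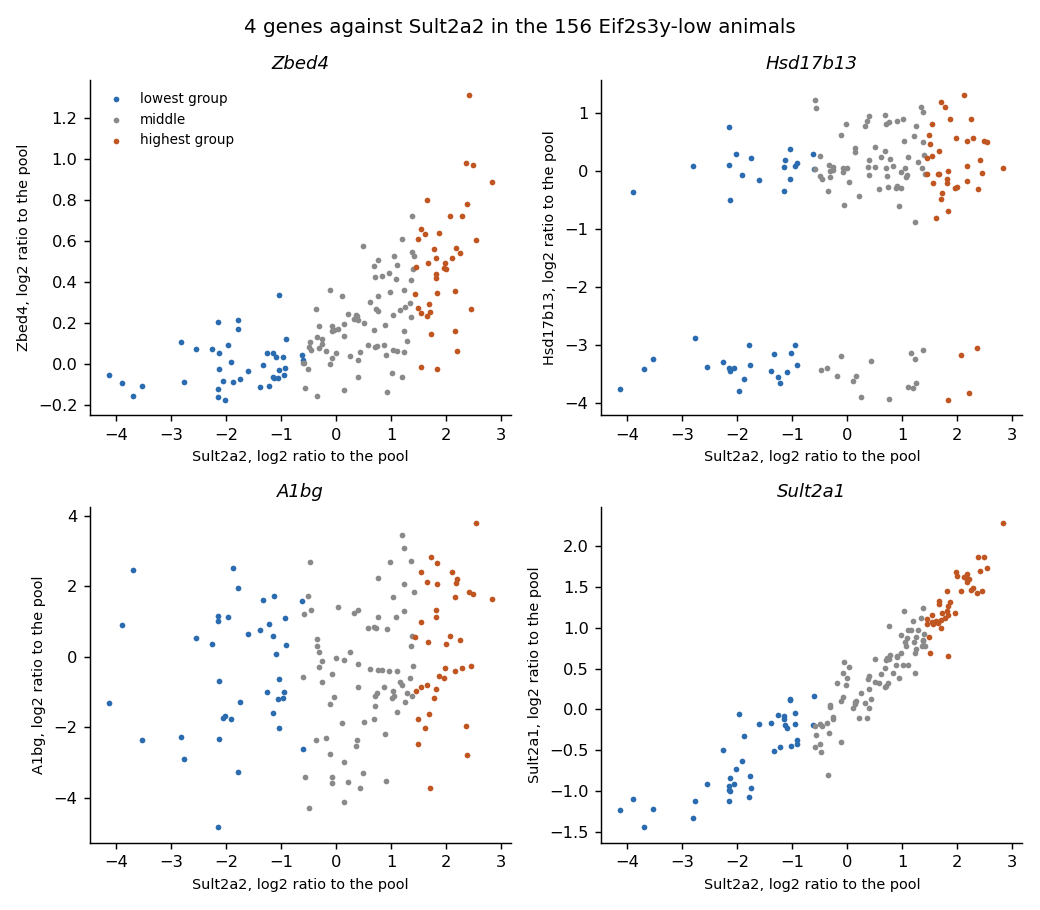
Each point is 1 Eif2s3y-low animal, with the log2 ratio of Sult2a2 on the x axis and that of Zbed4, Hsd17b13, A1bg or Sult2a1 on the y axis. Zbed4 and Sult2a1 climb with Sult2a2, Hsd17b13 splits into an upper and a lower cluster with 21 of 39 lowest-group animals below -2, and A1bg scatters over its whole range in each group.

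The 14 genes that were at least 1.5-fold lower with high Sult2a2 included 7 of the male-biased list and none of the female-biased list. Cyp4a12a, a fatty acid hydroxylase of male mouse liver, ran from -4.65 to -2.85 in the highest group (median -3.87) and from -4.80 to -1.03 in the lowest group (median -2.67). In 22 of the 39 lowest-group animals it exceeded every animal of the highest group. The difference of -1.14 ± 0.17 was 2.2-fold in favour of the lowest group, with an adjusted p of 3.06e-06. Its close relative Cyp4a12b differed by -0.59 ± 0.12 (adjusted p = 0.00167), and their probes may share RNA.

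Slco1a1, an uptake transporter of organic anions and steroid conjugates, ran from -2.84 to -1.52 in the highest group (median -2.15) and from -2.31 to 0.38 in the lowest group (median -1.18). In 25 of the 39 lowest-group animals Slco1a1 lay above all of the highest group, the most complete separation among the lower genes named here. It differed by -1.04 ± 0.13 (adjusted p = 4.42e-08). The middle animals had a median of -2.11, close to that of the highest group, so the raised values belonged mainly to the lowest group. Hsd3b5, a male-specific steroid-metabolizing dehydrogenase, ran from -4.86 to -3.49 in the highest group (median -4.24) and from -4.43 to -0.44 in the lowest group (median -3.62). It showed the same shape, with a middle median of -4.11 and 17 lowest-group animals above all of the highest group, and differed by -0.82 ± 0.15 (adjusted p = 0.000261).

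Cyp2d9, a testosterone hydroxylase, ran from -5.09 to -1.59 in the highest group (median -3.44) and from -3.83 to -1.24 in the lowest group (median -2.32). It differed by -1.01 ± 0.17 (adjusted p = 3.61e-05), with the middle animals between, at a median of -2.90. Omd, the proteoglycan osteomodulin, ran from -3.94 to -0.82 in the highest group (median -2.53) and from -2.67 to -0.44 in the lowest group (median -1.25), and differed by -1.07 ± 0.14 (adjusted p = 1.1e-07). Omd had the lowest rho with Sult2a2 (-0.528, n = 156), followed by Cyp4a12a (-0.522), Arsa (-0.512), Mtnr1a (-0.488) and Cyp2d9 (-0.482). Arsa, the lysosomal arylsulfatase A that removes sulfate from sulfatides, ran from -2.08 to -0.21 in the highest group (median -1.16) and from -1.58 to 0.78 in the lowest group (median -0.41). It differed by -0.73 ± 0.11 (adjusted p = 4.19e-06), and 13 lowest-group animals exceeded all of the highest group.

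The other lower genes of this size were Nat8, an N-acetyltransferase (-1.05 ± 0.18, adjusted p = 5.92e-05), the serpin pseudogene Serpina4-ps1 (-0.82 ± 0.16, adjusted p = 0.00103), the melatonin receptor gene Mtnr1a (-0.78 ± 0.12, adjusted p = 6.39e-06), the semaphorin Sema3e (-0.73 ± 0.19, adjusted p = 0.0192), the transporter Slc15a5 (-0.73 ± 0.13, adjusted p = 6.23e-05), the complement chain C8a (-0.73 ± 0.12, adjusted p = 3.45e-05) and the mitotic kinase Nek2 (-0.60 ± 0.11, adjusted p = 0.000283). By their medians, for all 14 the highest group lay farther from the Eif2s3y-high animals than the lowest group did: the Eif2s3y-high median was 1.01 for Cyp4a12a, 0.64 for Slco1a1 and 0.83 for Cyp2d9. For these 3 genes the highest value in the lowest group stayed below that median. With the array SD as a covariate Sema3e lost its call (adjusted p = 0.107). Just under 1.5-fold lay Twist1, a transcription factor (0.57 ± 0.15, adjusted p = 0.0269), the acyl-CoA thioesterase Acot3 (0.56 ± 0.12, adjusted p = 0.00305), the sialyltransferase St3gal6 (0.53 ± 0.12, adjusted p = 0.0042) and, among the lower genes, the growth factor receptor gene Egfr (-0.56 ± 0.13, adjusted p = 0.0106). Twist1 lost its call under 9 of 20 alternative settings, among them leaving out the arrays doubted below (adjusted p = 0.120).

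**Figure D4:**
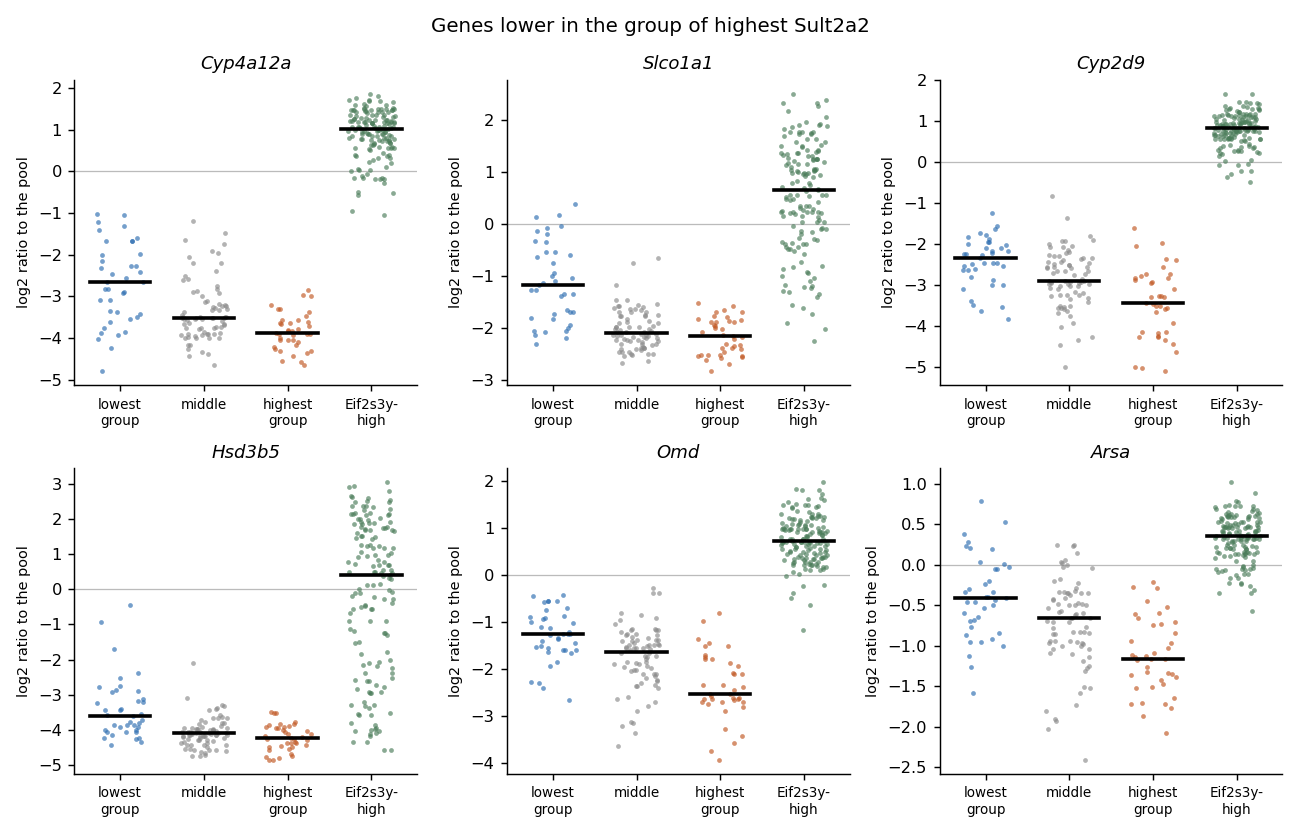
Each point is 1 animal; the y axes give the log2 ratio to the pool, the x axis the lowest, middle and highest Sult2a2 animals of the Eif2s3y-low set and the Eif2s3y-high animals, and black bars are medians. Slco1a1 and Hsd3b5 reach upward in the lowest group (maxima 0.38 and -0.44), while Cyp2d9 and Omd shift over their whole ranges.

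Promoter sequences are shown for 3 of the higher genes described first and for the 3 genes at least 1.5-fold lower whose window holds TTCNNNGAA, so the lower ones were chosen for that match. They are shown because the letters TTCNNNGAA describe the core that Stat5 proteins are known to bind and CAAAGTCCA one form of the site of Hnf4a, a hepatocyte transcription factor. The windows cover 250 bases before to 50 after the gene's start in RefSeq on GRCm38.p6, and matches on either strand are in capitals. They are Cyp3a16 at chr5:145469674-145469973 on the minus strand, Hao2 at chr3:98893181-98893480 on the minus strand, Slc22a26 at chr19:7802618-7802917 on the minus strand, C8a at chr4:104876349-104876648 on the minus strand, Arsa at chr15:89477375-89477674 on the minus strand and Sema3e at chr5:14025026-14025325 on the plus strand.
Cyp3a16: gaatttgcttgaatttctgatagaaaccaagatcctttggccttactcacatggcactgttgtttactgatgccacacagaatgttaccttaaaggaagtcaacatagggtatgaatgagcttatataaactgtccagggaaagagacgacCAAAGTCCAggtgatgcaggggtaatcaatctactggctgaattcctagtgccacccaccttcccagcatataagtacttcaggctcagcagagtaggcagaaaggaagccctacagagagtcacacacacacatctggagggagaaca
Hao2: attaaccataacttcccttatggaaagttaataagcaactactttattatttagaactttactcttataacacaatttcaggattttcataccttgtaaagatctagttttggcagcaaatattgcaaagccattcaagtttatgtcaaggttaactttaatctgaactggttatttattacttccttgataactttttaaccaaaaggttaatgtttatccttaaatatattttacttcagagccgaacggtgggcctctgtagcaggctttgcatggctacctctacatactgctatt
Slc22a26: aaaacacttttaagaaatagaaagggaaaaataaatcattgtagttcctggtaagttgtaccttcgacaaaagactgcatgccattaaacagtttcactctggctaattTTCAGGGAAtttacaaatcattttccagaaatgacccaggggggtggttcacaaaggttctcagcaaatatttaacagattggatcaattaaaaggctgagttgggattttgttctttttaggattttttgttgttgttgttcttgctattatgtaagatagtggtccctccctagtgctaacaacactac
C8a: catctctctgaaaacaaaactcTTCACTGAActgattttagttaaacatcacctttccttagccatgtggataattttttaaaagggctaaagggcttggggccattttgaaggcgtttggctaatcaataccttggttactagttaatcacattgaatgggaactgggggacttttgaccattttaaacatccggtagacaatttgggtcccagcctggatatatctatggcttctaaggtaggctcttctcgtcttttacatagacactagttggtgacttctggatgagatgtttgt
Arsa: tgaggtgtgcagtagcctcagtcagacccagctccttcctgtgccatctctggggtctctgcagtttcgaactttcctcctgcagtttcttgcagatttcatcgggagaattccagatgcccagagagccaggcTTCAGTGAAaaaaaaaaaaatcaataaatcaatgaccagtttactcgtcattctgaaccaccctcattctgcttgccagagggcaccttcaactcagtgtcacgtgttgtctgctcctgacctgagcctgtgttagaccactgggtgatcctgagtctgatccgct
Sema3e: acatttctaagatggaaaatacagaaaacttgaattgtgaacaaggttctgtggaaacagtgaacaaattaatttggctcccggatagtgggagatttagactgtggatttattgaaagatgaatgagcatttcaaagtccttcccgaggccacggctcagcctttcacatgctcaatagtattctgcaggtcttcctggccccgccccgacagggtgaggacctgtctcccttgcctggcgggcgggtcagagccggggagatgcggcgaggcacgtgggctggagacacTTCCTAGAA
TTCNNNGAA, which reads the same on both strands, stood in the windows of Slc22a26, C8a, Arsa and Sema3e, and CAAAGTCCA in that of Cyp3a16. Hao2 held neither. Of the genes at least 1.5-fold higher 10 matched the promoter table and 1 held TTCNNNGAA, and of those at least 1.5-fold lower 11 matched and 3 held it, while Slco1a1, Cyp2d9, Hsd3b5, Mtnr1a, Omd, Nek2, Slc15a5 and Nat8 did not. Of the 94 higher genes 74 matched the promoter table and 7 of these (9.46%) held TTCNNNGAA in at least 1 window; of the 142 lower genes 115 matched and 13 (11.3%) held it. The share over all 27025 genes of the table was 9.55%, and over the 8545 matched genes tested it was 8.44%. CAAAGTCCA stood in 2 of the 74 and 1 of the 115, against 0.555% of all genes in the table. A match is a stretch of letters and not a measured binding site.

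The called genes were spread over the chromosomes unevenly. Chromosome 5 had the highest share, 33 of 655 genes tested (5.04%), then chromosome 3 with 22 of 529 (4.16%) and chromosome 19 with 14 of 395 (3.54%), beside 2.07% over all genes. Chromosome 5 carries Cyp3a16, Cyp3a41a, Sult1e1, Hsd17b13, Sparcl1, Cux2, Rbks and Sema3e. Counted in the order of the 655 measured genes, 8 of genes 101 to 200 were called, 10 of genes 201 to 300 and 6 of genes 301 to 400, but 0 of genes 501 to 600. Genes next to each other on a chromosome are inherited together in an F2 cross, so they are not independent counts. On chromosome 15, 6 of 419 genes were called (1.43%), a smaller share than over all genes. Cyp2d9, Zbed4, Arsa and the peroxisomal fatty acid transporter Abcd2 lay at positions 251, 285, 303 and 309 in the order of measured genes. The called genes Ptger4 and Dpys lay apart from them, at positions 4 and 74. On chromosome 7, which carries Sult2a2, 10 of 893 genes (1.12%) were called. None of the 99 tested genes within 50 measured genes of Sult2a2 was called by limma, and 11 had an unadjusted p under 0.05. The share of all genes under that unadjusted limit is not given for this comparison. Such counts for this comparison, here and below, therefore have no background to be judged against. The 10 nearest, Gm4879, Zswim9, Lig1, Pla2g4c, Cabp5, Obox5, Obox6, Crx, Selenow and Nop53, had differences between -0.12 ± 0.08 (Lig1) and 0.14 ± 0.05 (Zswim9, adjusted p = 0.0964, the lowest of them).

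Of the list of known female-biased liver genes 38 of 49 were measured. Of these 12 were higher and 1, Cyp7b1, was lower in the highest group, beside 0.826% higher and 1.25% lower of all genes tested. The median difference over the 38 was 0.137, beside 0.00495 over all genes. Besides the genes named above, the flavin monooxygenase Fmo2 (0.35 ± 0.10, adjusted p = 0.0379), Abcd2 (0.43 ± 0.10, adjusted p = 0.00898), the membrane glycoprotein gene Prom1 (0.39 ± 0.10, adjusted p = 0.0188) and Slc22a27 (0.29 ± 0.08, adjusted p = 0.0441) were higher. Fmo2 lost its call under 10 of 21 alternative settings, with adjusted p up to 0.212, among them the covariate of array SD and leaving out the arrays doubted below. The lower one of that list was Cyp7b1 (-0.30 ± 0.07, adjusted p = 0.0116), an oxysterol hydroxylase that stands in the male-biased list as well. It is known as male-biased in mouse liver, so its decrease is not read here as that of a female-biased gene. Cyp7b1 lost its call under 5 of 20 alternative settings, with adjusted p up to 0.295. Cyp17a1, a steroid hydroxylase and lyase, had 0.97 ± 0.31, adjusted p = 0.0823, and Cyp2b9, a female-biased P450, -0.30 ± 0.13, adjusted p = 0.265, so neither passed the test. Sult3a1, another female-biased sulfotransferase, had -0.10 ± 0.20, adjusted p = 0.879, and Cyp2b13, a further female-biased P450, had 0.08 ± 0.06, adjusted p = 0.573. The list was thus split, with 23 genes above 0 and 15, Cyp7b1 among them, below 0, where 53.4% of all genes lay above 0.

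Of the known male-biased liver genes 26 of 51 were measured; 13 were lower and none was higher, beside 1.25% lower and 0.826% higher of all genes tested. Of the 26 differences 24 lay below 0, with a median of -0.342, where 46.6% of all genes lay below 0. Beyond those named above, the lower ones included Nudt7, a peroxisomal coenzyme A hydrolase (-0.55 ± 0.09, adjusted p = 5.92e-05), Gstp1, a glutathione transferase (-0.35 ± 0.08, adjusted p = 0.00515), the dehydrogenase Sdr9c7 (-0.42 ± 0.10, adjusted p = 0.00934) and Alas2, a heme synthesis enzyme that is also a red cell marker (-0.39 ± 0.08, adjusted p = 0.00231). Sdr9c7 lost its call under 6 of 21 alternative settings (adjusted p up to 0.706) and Gstp1 under 5 of 20 (adjusted p up to 0.109). Elovl3, a fatty acid elongase (-0.09 ± 0.10, adjusted p = 0.747), and Cyp8b1, a bile acid hydroxylase (-0.37 ± 0.11, adjusted p = 0.0697), did not pass the test. Elovl3 differed strongly between the sets of animals, with a median of 0.60 in the Eif2s3y-high and -1.62 in the middle animals, but overlapped fully between the groups.

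Of 26 measured genes of growth hormone signalling 1 was called, Cux2, and 6 had an unadjusted p under 0.05. With 2.07% of all genes called, 1 of 26 is near the background. The receptor Ghr had -0.08 ± 0.05, adjusted p = 0.502, the kinase Jak2 0.03 ± 0.07, adjusted p = 0.921, the signal transducers Stat5a 0.09 ± 0.06, adjusted p = 0.523 and Stat5b -0.02 ± 0.05, adjusted p = 0.916. The feedback inhibitors Socs2 (0.06 ± 0.14, adjusted p = 0.902) and Cish (0.04 ± 0.07, adjusted p = 0.875) and the repressor Bcl6 (0.01 ± 0.04, adjusted p = 0.929) were not called either. Trim24, a chromatin reader, and Tox, a nuclear protein, both female-biased, had 0.16 ± 0.06, adjusted p = 0.133 and 0.14 ± 0.05, adjusted p = 0.148. These are RNA levels and do not measure hormone or phosphorylation.

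Of 13 measured sulfotransferase and sulfate activation genes Sult1e1 was higher and Papss1, which makes the sulfate donor, was lower (-0.20 ± 0.05, adjusted p = 0.0142). Over all genes tested 0.826% were higher and 1.25% lower. The call of Papss1 was lost under 6 of 21 alternative settings. Papss2, its paralog, had 0.16 ± 0.12, adjusted p = 0.602, Sult1c2 0.29 ± 0.09, adjusted p = 0.0842, Sult1a1 0.25 ± 0.10, adjusted p = 0.203 and Sult1d1 0.15 ± 0.10, adjusted p = 0.564. Among 22 genes of sex steroid receptors and metabolism, Hsd17b13 and Serpina6 were higher and Hsd3b5 and Cyp7b1 lower, beside the same shares of all genes. Serpina6, the corticosteroid-binding globulin, ran from -0.29 to 1.25 in the highest group (median 0.80) and from -0.32 to 0.85 in the lowest group (median 0.26), with 16 highest-group animals above all of the lowest. It differed by 0.45 ± 0.07, adjusted p = 2.42e-05. The estrogen receptor gene Esr1 had -0.03 ± 0.04, adjusted p = 0.831.

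Of 31 bile acid genes none was higher and Slco1a1, Cyp7b1 and the bile acid receptor gene Nr1h4 (-0.10 ± 0.03, adjusted p = 0.0259) were lower, beside 1.25% lower over all genes. Nr1h4 lost its call under 10 of 20 alternative settings, with adjusted p up to 0.448. The bile salt export pump gene Abcb11 (-0.03 ± 0.06, adjusted p = 0.899), the uptake transporter gene Slc10a1 (0.01 ± 0.06, adjusted p = 0.958) and Baat, which conjugates bile acids (0.01 ± 0.05, adjusted p = 0.974), were not called. Of 40 xenobiotic metabolism genes Cyp3a16 and Cyp2a12 (0.18 ± 0.05, adjusted p = 0.0228) were higher, and Gstm6 (-0.36 ± 0.07, adjusted p = 0.00132), Gstp1 and Aldh1a7 (-0.34 ± 0.09, adjusted p = 0.0182) lower, 5 called genes beside 2.07% over all genes. Aldh1a7 lost its call under 10 of 21 alternative settings, with adjusted p up to 0.572, and Gstm6 under 5 of 21, with adjusted p up to 0.513. Nr1h4 was the only called one of 27 nuclear receptors and partners, a share near the 2.07% of all genes, and Nr1i3, the constitutive androstane receptor, had 0.14 ± 0.06, adjusted p = 0.249. Of 24 peroxisome genes Hao2, Abcd2 and the membrane protein gene Pxmp2 (0.19 ± 0.04, adjusted p = 0.00412) were higher, beside 0.826% of all genes. No gene of 17 in cholesterol synthesis or of 20 in fatty acid and triglyceride synthesis was called by limma, with 2 and 7 at an unadjusted p under 0.05 and medians of -0.085 and -0.135, and the desaturase Scd1 came nearest (-0.60 ± 0.19, adjusted p = 0.0818). With 2.07% of all genes called, no call in lists this short is near the background. Of these differences 14 of 17 and 16 of 20 lay below 0, where 46.6% of all genes did.

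Of 26 measured cell division genes, 23 differences lay below 0 (46.6% of all genes did) and 3 genes were called lower, beside 1.25% of all genes: the survivin gene Birc5 (-0.41 ± 0.11, adjusted p = 0.0176), and the cyclins Ccnb2 (-0.45 ± 0.12, adjusted p = 0.028) and Ccna2 (-0.33 ± 0.09, adjusted p = 0.0369). Birc5 ran from -1.47 to 0.61 in the highest group (median -0.31) and from -0.78 to 1.14 in the lowest group (median 0.02) over 37 animals each, so the groups overlapped over much of their ranges. These 3 calls were not stable: Ccnb2 and Ccna2 lost theirs under 10 of 21 alternative settings and Birc5 under 8 of 20, with adjusted p up to 0.326, 0.298 and 0.279. Leaving out the doubted arrays described below ended all 3. The list median was -0.102. Of the 37 lists examined 19 held no called gene, and 196 of the 236 called genes stood in no list.

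In bulk liver RNA, fewer cells of a type and less RNA per cell cannot be told apart. Marker lists of other cells gave no gene called by limma for macrophages (30 measured, 0 at an unadjusted p under 0.05), lymphocytes (19 and 2), matrix (26 and 2), endothelium (17 and 2), pancreas (10 and 0) and skeletal muscle (13 and 0). With 2.07% of all genes called, lists this short, that of hepatocytes below included, would often hold no called gene. These counts therefore do not describe cell content. Prom1, also a bile duct marker, was the only called one of 13 cholangiocyte genes, beside 2.07% of all genes. Of 9 red cell genes 4 were measured, all 4 lay below 0 (median -0.062) and Alas2 was called lower; the mean log2 ratio of the 4 over animals ran from -1.83 to 0.77 in the highest and from -1.29 to 0.59 in the lowest group. The part of red cell RNA in the difference of Alas2 was not tested. The 8 measured hepatocyte markers had a median difference of 0.022 and none was called by limma, with 1 at an unadjusted p under 0.05. A ratio to a pool of livers gives no absolute level, so the tissue itself cannot be checked from these values. All 10 pancreas genes lay below 0, with a median of -0.426, and over animals the mean log2 ratio of the list ran from -4.19 to 3.57 in the highest and from -4.18 to 2.70 in the lowest group. In 7 Eif2s3y-low animals a pancreas or muscle gene exceeded the pool 10-fold, 3 of them in the highest and 2 in the lowest group. Without these 7 arrays 72 genes were higher and 126 lower. Without these and the 4 Eif2s3y-low arrays among the 10 of largest SD, a choice made after seeing the data, 73 were higher and 108 lower, and 12 and 14 passed 1.5-fold. Median missing values per array were 67 in the highest and 82 in the lowest group, and the median F2 number, an animal's running number in the labels, was 241 and 189. The part of these measures in the single differences was not tested.

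The 78 animals outside both groups allowed a look at arrays the main comparison had not used. Split at their median Sult2a2, their upper 39 and lower 39 differed by only 1.07 in Sult2a2, against 3.76 between the groups. Of 11384 genes 1 (0.00878%) was called by limma, ZBED4 (0.34 ± 0.07, adjusted p = 0.0188), and 547 had an unadjusted p under 0.05. In these middle animals that is a slightly smaller share of genes than the limit of 0.05 passes on average when none differs. Cyp3a16 differed there by 0.72 ± 0.18 (adjusted p = 0.508), Zbed4 by 0.16 ± 0.04 (adjusted p = 0.468), Hao2 by 0.39 ± 0.17 and Cyp4a12a by -0.41 ± 0.16, none of which passed. Slco1a1 (0.06 ± 0.09) and Hsd3b5 (-0.05 ± 0.09) lay near 0. Of the 94 genes higher with high Sult2a2, 75 (79.8%) also had a positive difference in the middle animals, and of the 142 lower genes 96 (67.6%) had a negative one, beside 49.0% positive and 51.0% negative over all genes.

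Those same 78 middle animals were also set against the 155 Eif2s3y-high animals, a contrast added after seeing the data that shares no array with the groups. It called 2984 genes (26.2%) higher and 2596 (22.8%) lower in the Eif2s3y-low animals. Of the 94 genes higher in the highest Sult2a2 group, 78 (83.0%) were higher in the Eif2s3y-low animals and 1 (1.06%) lower. Of the 142 lower genes, 117 (82.4%) were lower in the Eif2s3y-low animals and 2 (1.41%) higher. All 14 genes of at least 1.5-fold on the lower side were lower there, among them Cyp4a12a (-4.26) and Cyp2d9 (-3.64). Of the 12 on the higher side 6 were higher and none lower, with Hao2 at 4.12, Slc22a26 at 4.12, Cux2 at 2.30 and Cyp3a16 at 1.61. Hsd17b13 (0.01), Sult1e1 (0.21) and ZBED4 (0.10) separated the Sult2a2 groups but were not called between the sets.

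The same ranking was made within the Eif2s3y-high animals, with 38 animals in each outer group. Sult2a2 was low in all of them, with group medians of -4.53 and -5.62 and a difference of means of 1.18, so this contrast spans a narrower and lower range. It called 2352 genes (20.7%), 1253 higher and 1099 lower, and the median number of missing values per array was 114 in its highest and 80 in its lowest group. Of the 94 higher genes of the Eif2s3y-low groups 9 were called higher there and 1 lower. Of the 142 lower genes 23 were called lower there and 6 higher. Over all 11384 genes tested, 1253 were called higher and 1099 lower in this contrast. The 9 of 94 were thus no larger a share than over all genes, while the 23 of 142 were a larger share. The calls in the opposite direction, 1 of 94 and 6 of 142, were smaller shares than over all genes. A test of the difference between the sets (the interaction in 1 fit of all 4 groups) called 301 of all genes (2.64%) and 69 of the 236 genes called in the Eif2s3y-low animals. Since those 236 were selected on one side of that difference, their count is a description.

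Cyp3a16 and Hao2 differed by -0.13 ± 0.17 and -0.15 ± 0.16 between the Eif2s3y-high groups, and the interaction was 1.62 ± 0.23, adjusted p = 5.18e-07 and 1.06 ± 0.23, adjusted p = 0.00288. Hsd3b5 and Serpina4-ps1 turned round: with high Sult2a2 they were higher in the Eif2s3y-high animals, by 1.03 ± 0.39 (adjusted p = 0.0438) and 1.01 ± 0.25 (adjusted p = 0.00175), and lower in the Eif2s3y-low animals, with interactions of -1.85 ± 0.54, adjusted p = 0.0406 and -1.83 ± 0.34, adjusted p = 0.000547. Cyp2d9 did so as well, at 0.37 ± 0.14 in the Eif2s3y-high animals (adjusted p = 0.0458; interaction -1.37 ± 0.19, adjusted p = 3.13e-07). All SEs of this fit use 1 spread shared by the 4 groups. Hsd3b5 scattered more widely in the Eif2s3y-high than in the Eif2s3y-low groups, so its ± 0.39 understates the spread there. Its call in the Eif2s3y-high animals rests on that shared spread and was not tested on these animals alone. Arsa and C8a were lower with high Sult2a2 in both sets, by -0.35 ± 0.09 (adjusted p = 0.00416) and -0.36 ± 0.13 (adjusted p = 0.0337) in the Eif2s3y-high animals, with interactions that did not pass (-0.38 ± 0.13, adjusted p = 0.0833, and -0.37 ± 0.18, adjusted p = 0.255). A1bg differed by 0.78 ± 0.29 in the Eif2s3y-high animals, close to its 0.72 in the Eif2s3y-low ones, and its interaction was -0.06 ± 0.41, adjusted p = 0.956. A1bg scattered much less in the Eif2s3y-high than in the Eif2s3y-low groups. The shared spread therefore makes its ± 0.29 too wide for the Eif2s3y-high animals.

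**Figure D5:**
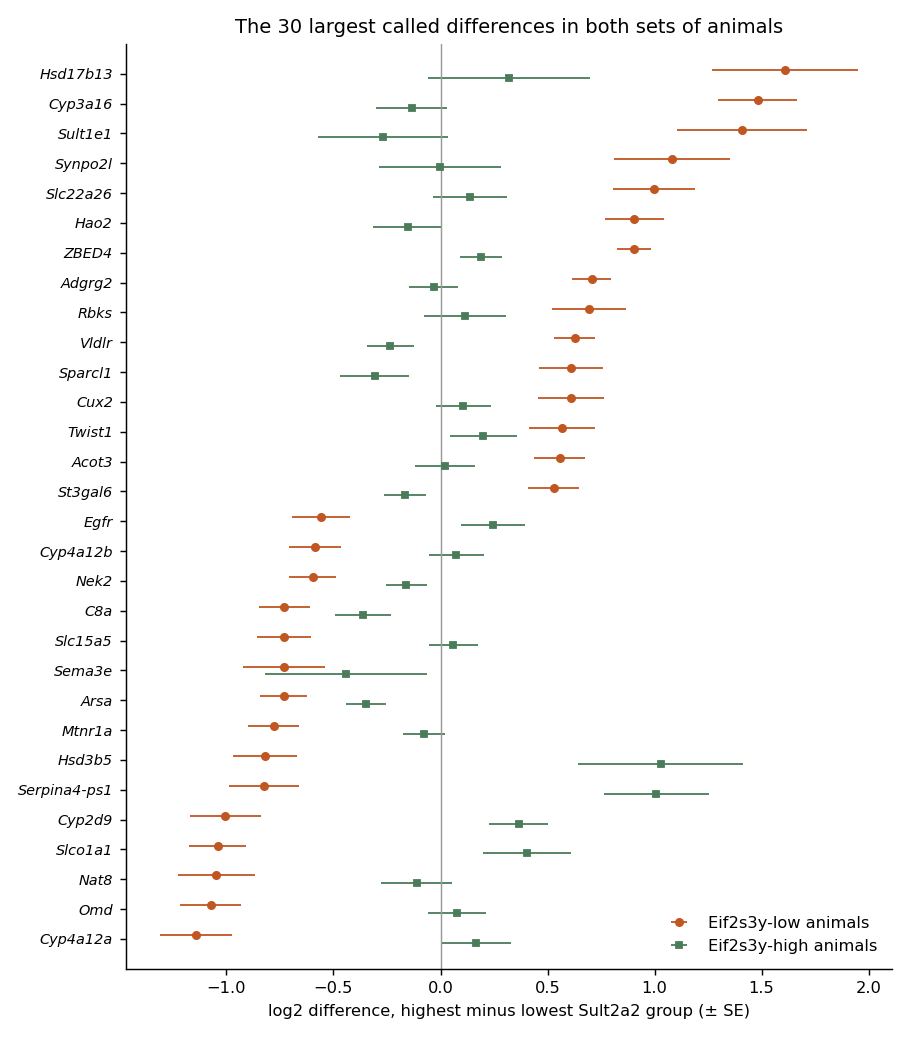
Points give the log2 difference between the highest and lowest Sult2a2 group (x axis, bars ± SE) for the 15 largest called differences in each direction (y axis), orange for the Eif2s3y-low and green for the Eif2s3y-high animals. Most green points lie near 0, Hsd3b5 and Serpina4-ps1 lie above 0 at 1.03 and 1.01, and Arsa, C8a and Sema3e lie below 0 in both sets.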

How the data were processed

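Liver RNA of 311 F2 animals was measured against a common pool on 2-colour arrays, and the authors deposited 1 log10 ratio per probe and array, limited to -2 and 2. Their normalization is not given in the sources used here. Per the labels Cy3 holds the liver and Cy5 the pool; the base and direction of the ratio were read from the values, and 0.745% of values were missing. For 1 animal title and source name give different F2 numbers (the title was used), and the sample descriptions give more mice than the 311 of the design. Precision is limited by the number of arrays, which carry no counts.

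Probes were named through the platform's table and a RefSeq table of GRCm38.p6. Each gene was read from the probe with the fewest missing values among those on at least 95% of arrays. Values were converted to log2, and 11384 genes (Sult2a2, Sult2a1 and Eif2s3y aside) were tested with limma 3.58.1 (lmFit, eBayes) in R 4.3.3, with Benjamini-Hochberg adjustment over all genes tested, after the script was tested on simulated data. Python 3.11.15 prepared the tables. The members, lists, rules and tests were chosen with earlier results of these data known. Named are the markers, the 15 largest called differences each way, up to 3 genes per list and direction and up to 3 central uncalled ones, 5 neighbours on each side of Sult2a2, and the 5 highest and lowest rho with Sult2a2. Other quantiles, limits, probes, filters, centring, covariates and arrays were tried as alternatives.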

Additional observations from a re-analysis of the deposited data

Results flagged for a closer look

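The difference between the highest and lowest Sult2a2 groups was not the same in both sets of animals for 26 of the 55 genes followed, by limma's test of the interaction in 1 fit of all 4 groups (Benjamini-Hochberg adjusted p under 0.05), beside 301 of all 11384 genes (2.64%). The value given is the difference in the Eif2s3y-low animals minus that in the Eif2s3y-high animals, in log2. The genes had been chosen for their difference in the Eif2s3y-low animals, and the Sult2a2 groups of the Eif2s3y-high animals span 1.18 instead of 3.76.

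For 12 genes the value lay above 0. It was 1.67 for Sult1e1, 1.62 for Cyp3a16, 1.06 for Hao2, 0.92 for Sparcl1, 0.86 for Slc22a26, 0.86 for Vldlr. Smaller values were 0.74 for Adgrg2, 0.71 for ZBED4, 0.69 for St3gal6, 0.65 for Prom1, 0.41 for Gbp3, 0.29 for Cyp2a12. Each of them was higher with high Sult2a2 in the Eif2s3y-low animals.

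For 14 genes the value lay below 0. It was -1.85 for Hsd3b5, -1.83 for Serpina4-ps1, -1.44 for Slco1a1, -1.37 for Cyp2d9, -1.31 for Cyp4a12a, -1.15 for Omd, -0.94 for Nat8. Smaller ones were -0.80 for Egfr, -0.79 for Slc15a5, -0.70 for Mtnr1a, -0.66 for Cyp4a12b, -0.56 for Alas2, -0.55 for Nudt7, -0.38 for Gstm6. Each of them was lower with high Sult2a2 in the Eif2s3y-low animals.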

How the results depend on the processing

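Over 21 alternatives the 55 genes followed gave 1135 values; 975 kept their side of the threshold, 160 lost the call and none changed direction. Of the 30 largest differences 20 were called under every setting that measured them. The upper against the lower 78 animals called 54 genes higher and 58 lower, and 4 and 4 at 1.5-fold. The fourth Sult2a2 probe as the ranking probe called 171 higher. An adjusted p under 0.01 left 38 higher and 57 lower. The array SD as a covariate left 84 lower. Probes present on every array left 8 of the 1.5-fold lower genes, since 18 of the 30 genes were then measured. Among the 52 animals in the middle of the ranking 0 genes were called by limma. Apart from the last fact on probes, the cause of these changes was not tested. The 15 highest against the 15 lowest animals ended 8 calls. The difference was 1.60 for Hsd17b13, 0.79 for Sparcl1, 0.67 for Twist1, -1.08 for Hsd3b5 and -0.67 for Egfr, about as large as or larger than in the main comparison, but smaller for Synpo2l (0.77), Sema3e (-0.42) and Rbks (0.13); the split at 78 ended those of Hsd17b13, Sult1e1, Synpo2l, Sparcl1, Twist1, Cyp4a12b and Egfr. No paired analysis was possible because the labels form 1 group and each animal has 1 array. Ratios to a pool give no signal over background, so low ratios such as those of Sult2a2 in Eif2s3y-high animals have an unknown measurement floor.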
